A study of Ovis aries with 10 samples.

Results

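Among the circular RNAs (circRNAs) of sheep samples labelled as back muscle, 123 came from 54 genes of the extracellular matrix and of cell adhesion, out of 8721 circRNAs listed in the libraries. They were chosen by the name of their host gene: collagens, laminins, integrins, ADAM and ADAMTS proteins, fibrillins and fibronectin, cadherins and protocadherins, genes named for the catenins, enzymes of heparan sulfate synthesis, and the VEGF receptor gene FLT1. The rule used host gene names and no measured value beyond an entry in these libraries, but it was set with earlier results of these data known. All 10 libraries are of small-tailed Han sheep: 5 had a sham operation, 5 had their ovaries removed (ovariectomy), and they serve to study how estrogen acts on muscle growth in females. The labels name the tissue as longissimus dorsi, a long muscle of the back, and give no age and no time after surgery. They assign no treatment besides the operation to any single library. They also call the samples primary myoblasts and describe an estradiol series in culture, so whether the RNA came from muscle or from cultured cells is not settled by them. Whether any library belongs to that estradiol series is not settled either. Nothing in the labels says that each library came from a separate animal, and p-values therefore measure the spread between these libraries only.

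A circRNA forms when the end of a downstream exon is spliced back to the start of an upstream exon, and a read across that back-splice junction marks the circle. Muscle fibers are wrapped in a basement membrane of laminins, collagen IV and heparan sulfate proteoglycans, with fibrillar collagens outside it. Integrins are receptors of paired alpha and beta chains that link this matrix to the cytoskeleton, cadherins and catenins join cells to each other, and ADAM and ADAMTS enzymes cleave surface proteins and matrix. A circRNA of such a gene is usually not translated, and its reads do not measure the protein or the linear messenger RNA.

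The libraries held 35731 to 67061 junction reads, the highest in ovariectomized replicate 5, and the circRNAs of matrix and adhesion genes took 281 to 684 of them. That was 0.901% ± 0.092 of the reads in sham and 0.993% ± 0.123 in ovariectomized ones (SD over 5 libraries per group), ranges of 0.760% to 0.999% and 0.859% to 1.15% that overlap. Each library listed 34 to 54 of the 123 circRNAs, or 43.8 ± 6.50 per sham and 44.6 ± 7.77 per ovariectomized library (SD, n = 5 each). As to the labelled tissue, 8 of 9 muscle fiber genes hosted a circRNA. Their summed normalized reads were 1400 to 2177 in sham and 935 to 1717 in ovariectomized libraries. Of 7 myoblast and satellite cell genes, DES, NCAM1 and MET hosted circRNAs. These summed to 52.5 to 98.9 normalized reads in sham and 63.2 to 127.4 in ovariectomized libraries. The myoblast regulators PAX7, MYF5, MYOD1 and MYOG, 5 proliferation genes and 7 fibroblast genes (COL1A1, COL1A2, COL3A1, DCN, LUM, PDGFRA and FN1) hosted none. Of 5 smooth muscle and pericyte genes, MYH11 and ABCC9 hosted circRNAs. These summed to 36.6 to 72.8 normalized reads in sham and 42.2 to 74.3 in ovariectomized libraries. Of 5 adipocyte genes, PPARG alone hosted circRNAs, with at most 6.47 in sham and 5.09 in ovariectomized libraries. The 4 Schwann cell and 5 immune genes hosted none. A gene that hosted no circRNA may still have been expressed. In bulk RNA, fewer cells of a type and less RNA per cell cannot be told apart.

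Integrin circRNAs held the most reads, 1226 of 4242 (28.9%), followed by the ADAM and ADAMTS circRNAs with 1094 (25.8%). Collagen circRNAs held 673, those of heparan sulfate enzymes 455 and those of laminins 367. FLT1 gave 136 reads, cadherins and protocadherins 155, the catenin-named genes 131, and the fibrillin gene FBN1 5. The number of circRNAs followed another order, with 38 of ADAM and ADAMTS genes, 25 of integrins, 24 of laminins, 10 of collagens, 9 of heparan sulfate enzymes, 6 of cadherins and 5 each of catenin-named genes and FLT1. Laminins thus gave many circRNAs with few reads each, a median of 4 reads per circRNA against 15.5 for collagens and 22 for heparan sulfate enzymes. A single circRNA of ITGA7 supplied 767 of the 1226 integrin reads, and a single circRNA of COL15A1 403 of the 673 collagen reads.

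**Figure D1:**
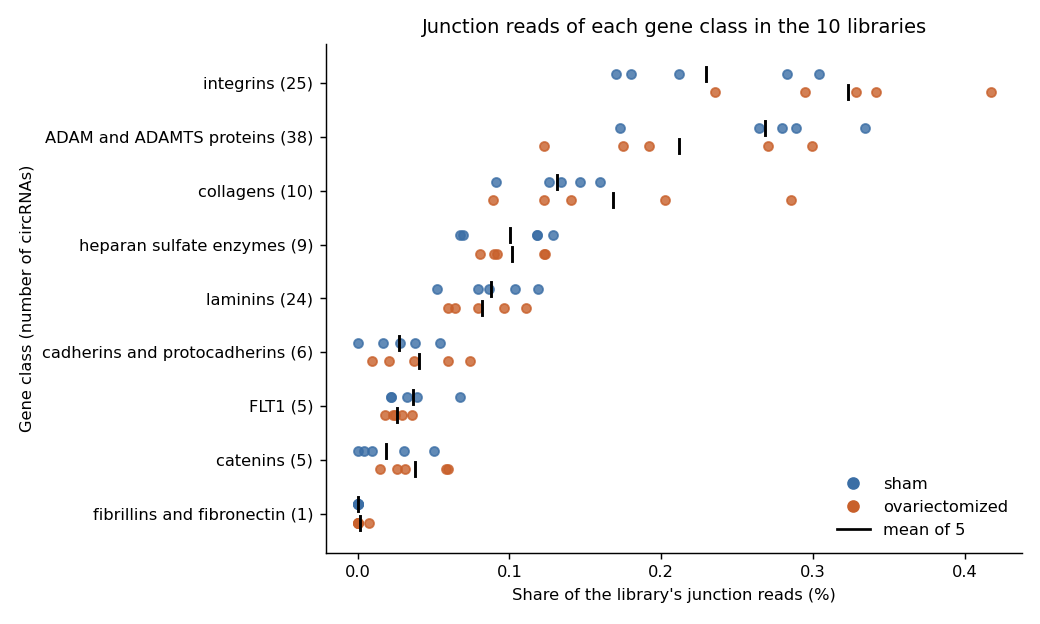
Share of each library's junction reads (x axis, percent) taken by the circRNAs of each gene class (y axis, number of circRNAs in parentheses), with 1 point per library and a black bar at the mean of 5. Integrins reach 0.170% to 0.417% of a library and every class overlaps between sham and ovariectomized libraries.

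The circles were mostly short and exonic. Of the 123, 118 were exonic and 5 intronic, the median spliced length was 292 bases and the median genomic span 9988 bases, against 291 and 7671 for the other 8598 circRNAs. The longest spliced lengths were 598 bases for novel_circ_0011516 of LAMC1, 583 for novel_circ_0006959 of NDST1 and 524 for novel_circ_0016830 of ADAM9. The widest genomic spans were 46846 bases for novel_circ_0008330 of ADAM10, 46593 for novel_circ_0013255 of ADAMTS12 and 43562 for novel_circ_0008936 of HS3ST5. For 36 of the 123 (29.3%, against 31.2% of the others) the exons listed in the file stop short of at least 1 end of the junction, so their spliced length and exon number are incomplete. Every library listed 11 of the circRNAs (8.94%), and 48 (39.0%) appeared in a single library, against 9.25% and 37.5% of the others.

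Of the 54 hosts, 27 gave more than 1 circRNA, against 52.2% of the other hosts. The most came from the laminin chain genes LAMA4, with 10, and LAMA2, with 9, and 5 each came from FLT1, ADAMTS9, ADAMTS12 and ADAMTS20. LAMA2 encodes the alpha chain of the main laminin of muscle fibers, and LAMA4 an alpha chain of vessel basement membranes. In LAMA4 (chromosome 8, plus strand), 4 circRNAs began at the same position, 25602661, and ended at 25604562, 25609101, 25612192 and 25626040, with 60 reads together. In LAMA2 (chromosome 8, plus strand), 3 circRNAs shared their end at 54748808 with 3 different starts, and all 9 held 53 reads over a stretch of 470470 bases. ADAM32 (chromosome 26, plus strand) used the end at 33347621 for 3 circRNAs that held 254 of its 295 reads. In the collagen receptor gene ITGA1 (chromosome 16, minus strand), 3 of 4 circRNAs shared the position 26394153. It is their higher coordinate, which on the minus strand is the upstream side of the circle. In all, 58 of the 96 circRNAs from hosts with more than 1 shared an end with another circRNA of the gene (60.4%, against 69.2% of other circRNAs). Coordinates are those of the deposited file with starts counted from 1. The genome build is not given in the sources used here, and no sequences were available to print.

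**Figure D2:**
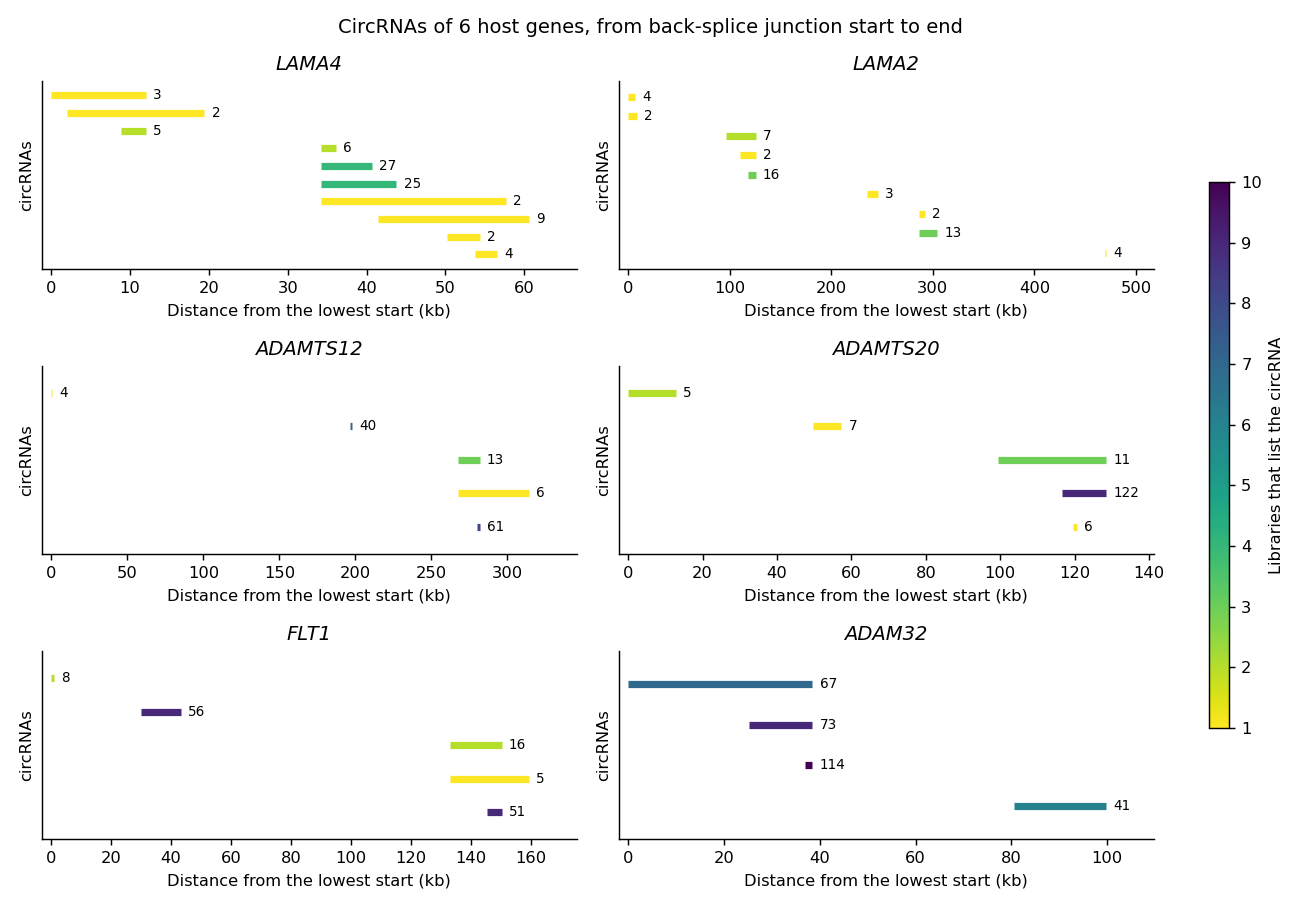
CircRNAs of 6 host genes drawn from junction start to end (x axis, kilobases from the lowest start), with 1 bar per circRNA, coloured by the number of libraries that list it and marked with its junction reads. The LAMA4 panel shows 4 bars with a common start, and the ADAM32 panel 3 bars with a common end.

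The file also counts non-junction reads for each circRNA, a term not defined in the sources used here, taken as reads at the circle's exons that do not cross its junction and may come from linear RNA. The classes differed widely in these counts. Laminin circRNAs had a median of 94.7 non-junction reads per junction read, and 23 of 24 had over 30, against 42.7% of all circRNAs. For LAMA2 the ratio over its 9 circRNAs was 100.5, for LAMA4 60.8 and for LAMB1, which encodes a beta chain, 180.5. Cadherin circRNAs lay at the other end, with 0.20 to 3.00 non-junction reads per junction read in all 6 of them. Intermediate medians were 8.82 for ADAM and ADAMTS genes, 13.1 for heparan sulfate enzymes, 14.3 for integrins and 16.2 for collagens.

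Within a gene the ratio could be nearly constant or wide. The 4 circRNAs of ADAM32, a member of the ADAM family, had 1.64 to 1.78 non-junction reads per junction read. The circRNAs of LAMA2 had 51.5 to 244. By contrast, the 2 integrin circRNAs with the most reads were far apart: ITGA7, the laminin receptor alpha chain of muscle, had 5.04 for novel_circ_0004599, and ITGB1, the beta chain it pairs with, had 99.3 for novel_circ_0011767. The lowest values, under 1, were those of 5 circRNAs (4.07%, against 2.75% of all), from CDH7, ADAMTS12, ADAMTS17, COL6A5 and CDH23, none with over 38 reads. The highest was 472.75 for novel_circ_0002751 of CTNNAL1, with 4 reads. These ratios are a description over unequal read numbers, since a circRNA is entered only where at least 2 junction reads were found.

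**Figure D3:**
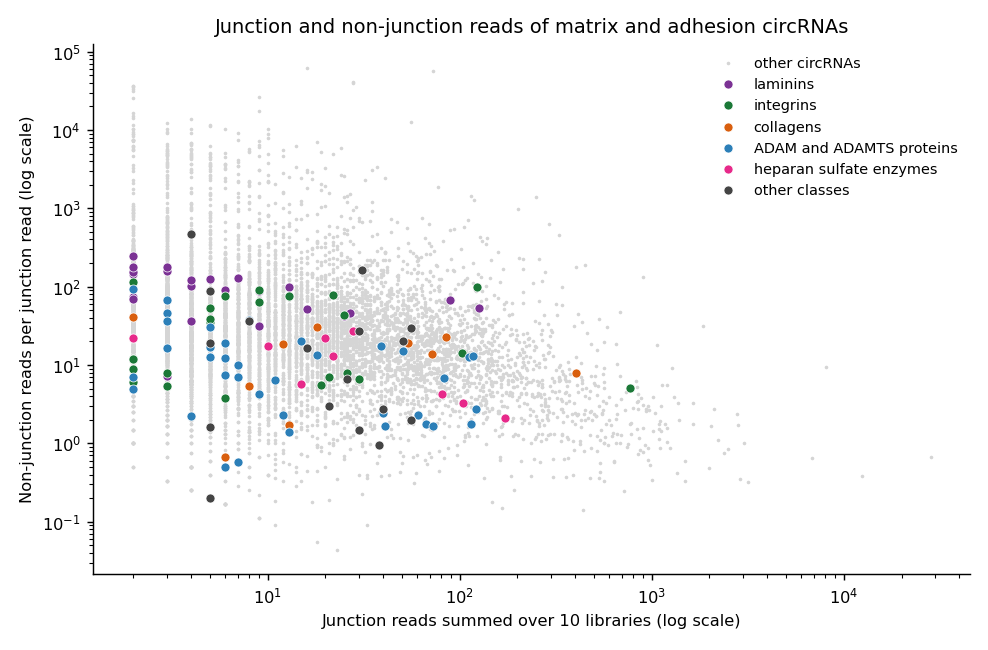
Non-junction reads per junction read (y axis, log scale) against junction reads summed over 10 libraries (x axis, log scale), with 1 point per circRNA, coloured by gene class over the other circRNAs in grey (34 without a non-junction read are not drawn). Laminin points lie high, between 7.33 and 244, and the ITGA7 point at 767 reads lies at 5.04.

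To compare ovariectomized with sham libraries, junction reads were scaled between libraries and fitted with limma voom, a linear model with weights for count data. Testing was limited to circRNAs with 10 or more scaled reads in 5 libraries, which 738 of 8721 had, and p-values were adjusted over those 738. Of the matrix and adhesion circRNAs, 9 of 123 were tested, from NDST2, ADAM9, NDST1, ITGA7, LAMC1, ADAM32, COL15A1, ITGB1 and ADAM10. None passed the threshold of 0.05 in limma, where 0% of the 738 did, and 1 had an unadjusted p under 0.05, against 5.69% of the 738 (9 higher and 33 lower, or 27 and 12 with library totals alone). The same counts, 0 and 1, came from limma trend. With reads summed per host gene, 13 of 54 hosts were tested and none passed, against 0% of 753 hosts. At an unadjusted p under 0.05 there were 3 hosts, NDST2, ADAM32 and ADAM9, all lower, against 5.98% of the 753 in either direction and 4.38% lower, and limma trend also gave 0 and 3. With library totals alone the count was 1 of 13 hosts, and the split over all 753 turned from 12 higher and 33 lower to 38 and 14. The count was also 1 without sham replicate 3, sham replicate 5, ovariectomized replicate 1 or ovariectomized replicate 2, and 2 or 3 without any other library. Some hosts met the filter mostly through the group where they are higher. These were NDST2, ADAM9 and COL14A1 through sham and NDST1 through ovariectomized libraries, so their direction is not independent of the filter. The host sums not described further were at -1.10 ± 0.41 for NDST2, 1.18 ± 0.92 for NDST1 (0.54 without sham replicate 1), 0.40 ± 0.28 for ITGA7, 0.46 ± 0.38 for COL15A1, -0.42 ± 0.38 for LAMC1, 0.23 ± 0.55 for ITGB1 and 0.04 ± 0.50 for ADAM10 (log2 fold change ± SE). All values below are therefore differences that did not pass the adjusted test. Over the 738, estimates had a median SE of 0.42 on the log2 scale.

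**Figure D4:**
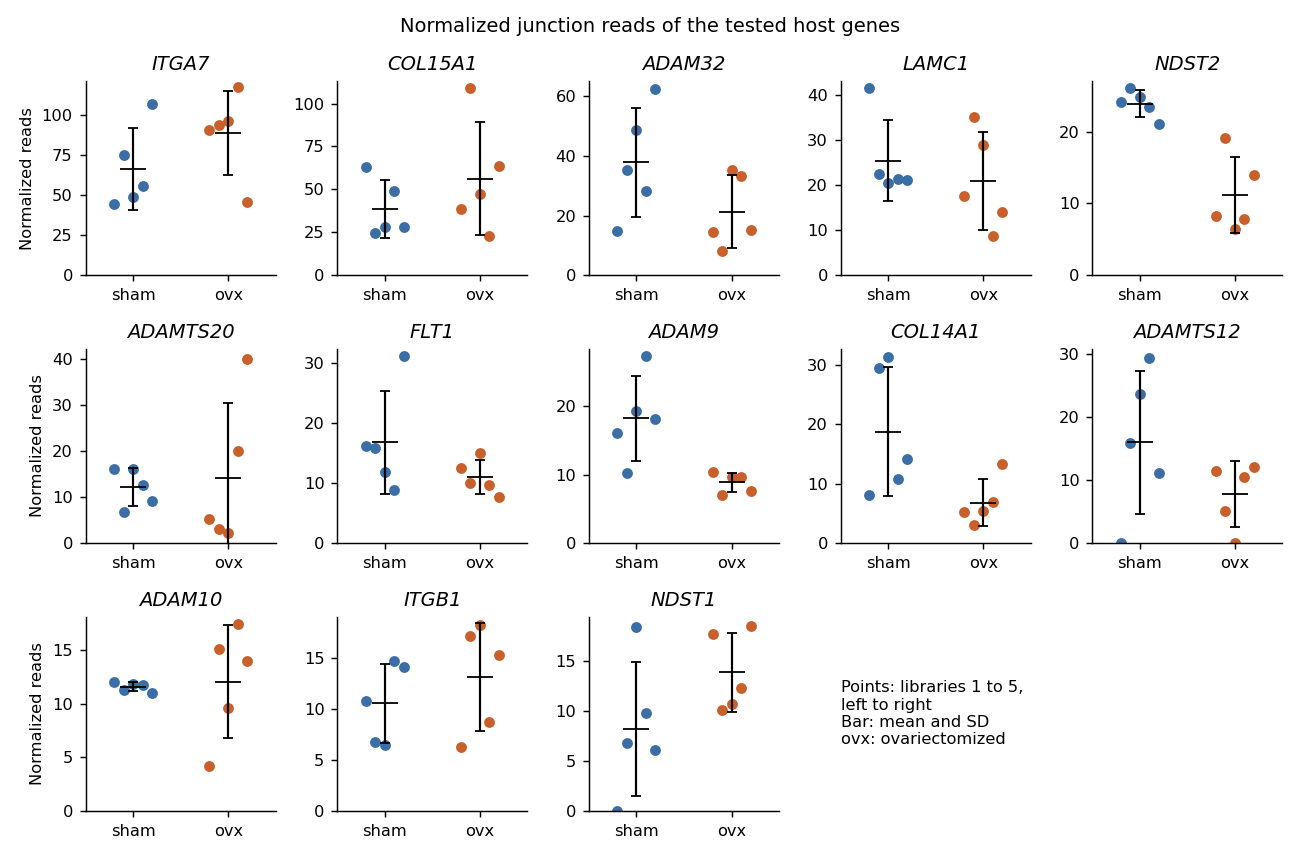
Normalized junction reads (y axis, reads scaled to a common library size) of the 13 tested host genes, summed over the circRNAs of each gene, with 1 point per library and the mean and SD of 5 libraries per group (bars cut off at 0). NDST2 is the 1 gene of the 13 whose groups do not overlap (they do with library totals alone), and ADAM9 overlaps by a single sham library at 10.2 against 10.4.

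Among heparan sulfate enzymes, the bifunctional N-deacetylase and N-sulfotransferase genes NDST1 and NDST2, which start the sulfation of the chains, had opposite estimates. NDST2 gave a single circRNA, novel_circ_0016529 of 3 exons (chromosome 25, 28916675 to 28917298, minus strand). Sham replicates 1 to 5 gave 18, 23, 23, 24 and 21 junction reads, and ovariectomized replicates 1 to 5 gave 8, 19, 6, 9 and 22. After scaling, all 5 ovariectomized libraries, at 6.33 to 19.3 normalized reads, lay below all 5 sham libraries, at 21.2 to 27.7. Groups without overlap were seen in 1.36% of the 738 tested circRNAs, and 0.813% were without overlap and lower. Among the 753 hosts these shares were 0.664% and 0.398%, with NDST2 the 1 member of 13. With library totals alone the groups overlap, as the lowest sham library was at 20.3 and the highest ovariectomized library at 20.8. The sham libraries were close together, with 24.1 ± 2.36 (SD, n = 5), and the ovariectomized ones wider, with 11.1 ± 5.38 (SD, n = 5). On the log2 scale the difference was -1.14 ± 0.35 (SE; limma adjusted p = 0.781). The filter was met mostly by sham libraries, where the circRNA is higher, so this estimate is not independent of the filter.

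NDST1 had novel_circ_0006959 (chromosome 5, 59615387 to 59618813, plus strand) read 0, 6, 13, 5 and 6 times in sham replicates 1 to 5 and 17, 10, 10, 14 and 23 times after ovariectomy. Sham replicate 3 had the highest sham value, 14 normalized reads, which lies within the ovariectomized range of 10.2 to 17.6. On the log2 scale the difference was 1.46 ± 1.00 (SE; limma adjusted p = 0.846), and was 0.78 without sham replicate 1, which had no entry. This circRNA met the filter through the ovariectomized libraries, where it is higher. Among sham libraries only replicate 3 reached 10 scaled reads, so the estimate is not independent of the filter. The other NDST1 circRNA, novel_circ_0006960, was under the filter. It had 4 and 5 reads in sham replicates 3 and 4 and 6 in ovariectomized replicate 5. Its mean was lower after ovariectomy, 0.74 normalized reads against 1.85 in sham. Of the chain-forming glycosyltransferase genes, EXTL3 was read 7, 6, 8, 13 and 5 times in the 5 sham and 4, 10, 8, 10 and 10 times in the 5 ovariectomized libraries for novel_circ_0001966. EXT2 had 32 reads over 3 circRNAs, and HS3ST5, which encodes a 3-O-sulfotransferase, 28 reads of a circRNA annotated as intronic.

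Of the integrins, the ITGA7 circRNA novel_circ_0004599 (chromosome 3, 163769099 to 163769594, plus strand) was the most abundant. It joins 2 exons into 309 bases. Normalized reads were 42.9, 79.4, 45.3, 56.1 and 93.9 in sham and 89.9, 94.6, 95, 116 and 44.6 in ovariectomized replicates 1 to 5. The groups overlap through sham replicates 2 and 5, which were high, and ovariectomized replicate 5, which was low. Group means were 63.5 ± 22.3 and 88.1 ± 26.3 (SD, n = 5 each), for a difference on the log2 scale of 0.42 ± 0.30 (SE; limma adjusted p = 0.847), and 0.71 without ovariectomized replicate 5. A longer circle from the same start, novel_circ_0004600, was listed only in sham replicates 3 and 5, with 3 and 13 reads.

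The ITGB1 circRNA novel_circ_0011767 (chromosome 13, 19322092 to 19325722, plus strand) was read 8, 6, 6, 15 and 14 times in the 5 sham and 6, 17, 17, 10 and 24 times in the 5 ovariectomized libraries. On the log2 scale the difference was 0.17 ± 0.49 (SE; limma adjusted p = 0.941), so the estimate is smaller than its error. ITGAV, an alpha chain that binds fibronectin and vitronectin, was read 5, 5, 20, 3 and 6 times in the 5 sham and 9, 8, 5, 13 and 29 times in the 5 ovariectomized libraries for novel_circ_0002147, which was under the filter. The other 9 integrin hosts held 2 to 59 reads each. ITGA4, whose chain forms a receptor for fibronectin and VCAM-1, led them with 59 reads over 3 circRNAs, followed by ITGA1 with 52 and the laminin receptor gene ITGA6 with 39.

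Collagen hosts were COL15A1, COL14A1, COL21A1, COL5A2, COL4A4 and COL6A5. COL15A1 encodes a collagen of the zone around basement membranes of muscle and capillaries. Its circRNA novel_circ_0003754 (chromosome 2, 48808659 to 48813028, minus strand) had 54.7, 26.5, 28.0, 38.4 and 28.3 normalized reads across sham replicates 1 to 5 and 33.1, 90.5, 34.8, 22.5 and 40.9 across the ovariectomized ones. Ovariectomized replicate 2 stood far above the rest, and without it the log2 fold change turned from 0.22 ± 0.35 (SE, limma adjusted p = 0.939) to -0.031. A second COL15A1 circRNA, novel_circ_0003758, was listed in 2 sham libraries with 5 and 11 reads and in 4 ovariectomized libraries with 5, 19, 11 and 34.

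COL14A1 encodes a collagen that sits on the surface of collagen fibrils. Its circRNAs novel_circ_0010098 and novel_circ_0010100 (chromosome 9, 94449266 to 94465941 and 94454422 to 94465941, plus strand) share their end and were both under the filter. The former was read 0, 13, 17, 5 and 7 times in the 5 sham and 5, 3, 5, 4 and 13 times in the 5 ovariectomized libraries. The latter had 6, 13, 12, 6 and 5 in sham and 0, 0, 0, 4 and 8 in ovariectomized libraries. For novel_circ_0010100 the groups did not overlap after scaling, by a narrow margin, with 9.47 ± 4.61 normalized reads in sham against 1.69 ± 2.37 after ovariectomy (SD over 5 libraries). With library totals alone they overlap, with the lowest sham library at 4.83 and the highest ovariectomized one at 5.31. It was singled out after its values were seen. Groups of 5 without overlap fix the two-sided exact permutation p over 252 splits at 0.00794, the smallest these splits can give. That p was 1 after Benjamini-Hochberg adjustment over the 7983 circRNAs under the filter, and it adds nothing to the lack of overlap itself. In that set 2 of 114 matrix and adhesion circRNAs had an exact p under 0.05, against 1.69% of all, and 1 had groups without overlap, lower after ovariectomy, against 0.175% of all and 0.125% in that direction. Summed over its 3 circRNAs, COL14A1 had 18.7 ± 10.8 normalized reads in sham against 6.78 ± 3.94 after ovariectomy (SD over 5 libraries), a log2 fold change of -1.11 ± 0.72 (SE; limma adjusted p = 0.806). Fibroblast markers could not be set beside it, as none of the 7 hosted a circRNA.

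Laminin circRNAs overlapped between the groups in the 1 tested host. LAMC1 encodes the gamma chain common to most laminins, and novel_circ_0011516 (chromosome 12, 63610605 to 63615186, plus strand) joins 4 of its exons. It was read 13, 12, 6, 12 and 16 times in the 5 sham and 9, 15, 22, 5 and 16 times in the 5 ovariectomized libraries. On the log2 scale the difference was -0.31 ± 0.47 (SE; limma adjusted p = 0.939). From the same start, novel_circ_0011517 ended further on and was read 18, 8, 7, 7 and 5 times in the 5 sham and 8, 20, 5, 5 and 6 times in the 5 ovariectomized libraries. The share of LAMC1 reads in novel_circ_0011516 ranged from 31.6% to 81.5% between libraries. LAMA4 had reads in 4 libraries of each group, and LAMA2 in 5 sham and 3 ovariectomized libraries. Summed over its 9 circRNAs, LAMA2 had 9, 4, 5, 11 and 10 reads in the sham libraries and 0, 4, 4, 0 and 6 after ovariectomy, which is 8.56 ± 3.38 against 2.43 ± 2.22 normalized reads (SD over 5 libraries). The groups did not overlap, at 4.53 for the lowest sham and 4.28 for the highest ovariectomized library, but with library totals alone they do, at 4.46 and 4.56. LAMA2 was under the filter and not tested, and was singled out after its values were seen. It was 1 of 41 such hosts of matrix and adhesion genes without overlap, against 0.522% of all 2682 hosts under the filter and 0.261% lower after ovariectomy.

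The ADAM genes encode membrane proteins with a metalloprotease domain, active in ADAM9, ADAM10 and ADAM17. ADAM9 had 4 circRNAs, of which novel_circ_0016830 (chromosome 26, 33228461 to 33238441, plus strand) held 118 of 134 reads. Its normalized reads were 15.6, 10.8, 9.70, 24.6 and 14.1 in sham and 10.3, 7.12, 9.50, 9.54 and 7.44 in ovariectomized replicates 1 to 5. The groups overlap only through sham replicate 3, which lies under ovariectomized replicate 1. On the log2 scale the difference was -0.78 ± 0.43 (SE; limma adjusted p = 0.781), and -1.04 ± 0.48 with an adjusted p of 0.760 for the host sum. Both met the filter mostly through sham libraries, where they are higher, so these estimates are not independent of the filter.

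ADAM32 lies beside ADAM9 on chromosome 26. Summed over its 4 circRNAs, it had 14.7, 35.1, 48.4, 28.4 and 62.3 normalized reads across sham replicates 1 to 5 and 14.6, 8.06, 35.3, 33.2 and 15.3 across the ovariectomized ones. Sham replicate 1 was as low as the lower ovariectomized libraries. The log2 fold change of the sum was -0.92 ± 0.42 (SE; limma adjusted p = 0.760). The circRNA with the most reads, novel_circ_0016841, was at -0.33 ± 0.50 with an adjusted p of 0.939, so the size of the estimate differed between the sum and its leading circRNA. ADAM10, the main sheddase of Notch and cadherins, was read 9, 10, 8, 12 and 11 times in the 5 sham and 4, 9, 9, 20 and 20 times in the 5 ovariectomized libraries for novel_circ_0008331 (chromosome 7, 49715712 to 49739364, plus strand). Sham libraries were close together and ovariectomized ones spread on both sides, with a log2 fold change of -0.03 ± 0.45 (SE) and a limma adjusted p of 0.981.

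The ADAMTS genes encode secreted enzymes, among them versican- and aggrecan-cleaving proteases. ADAMTS20 had novel_circ_0004459 read 6, 6, 13, 13 and 9 times in sham and 5, 0, 2, 14 and 54 in ovariectomized libraries, so that ovariectomized replicate 5 alone held 54 of 122 reads. The host sum was at 0.26 ± 0.71 (SE; limma adjusted p = 0.938), and at -0.44 in limma trend. ADAMTS12 was at -0.86 ± 1.1 (SE), with an adjusted p of 0.885 and no reads in sham replicate 1 and ovariectomized replicate 3. Single libraries moved it from -0.29 without ovariectomized replicate 3 to -1.47 without ovariectomized replicate 5, with -0.37 without sham replicate 4 and -1.43 without sham replicate 1. ADAMTS5, which cleaves aggrecan and versican, was read 7, 9, 12, 7 and 5 times in the 5 sham and 0, 13, 8, 11 and 11 times in the 5 ovariectomized libraries for novel_circ_0000211, which was under the filter. ADAMTS9 gave 90 reads over 5 circRNAs.

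FLT1 encodes a receptor of vascular endothelial growth factor on endothelial cells. Summed over its 5 circRNAs, it had 16.1, 15.8, 11.8, 8.80 and 31.1 normalized reads across sham replicates 1 to 5 and 12.5, 10.1, 15, 9.61 and 7.64 across the ovariectomized ones. Sham replicate 5 was the highest and the groups overlap. On the log2 scale the difference was -0.62 ± 0.46 (SE; limma adjusted p = 0.806), and -0.29 without sham replicate 5. Of 7 endothelial marker genes, FLT1 among them, 4 hosted circRNAs and CDH5, KDR and EMCN did not. Their summed normalized reads, which include those of FLT1, were 15.6 to 31.3 in sham and 12.1 to 26.6 in ovariectomized libraries. With the scaling used for single circRNAs, FLT1 alone gave 15.6 in sham replicate 1 and 31.3 in sham replicate 5. The sum is therefore no separate measure of endothelial RNA, and the part of endothelial cells in the FLT1 values was not tested.

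Cadherin and catenin circRNAs were all under the filter. PCDH7, a protocadherin gene, led the cadherins with novel_circ_0007483, read 9 and 14 times by sham replicates 3 and 5, and 4, 6, 3, 12 and 8 times by the ovariectomized libraries. It was thus listed in 2 sham and all 5 ovariectomized libraries. CTNNA3, which encodes an alpha-catenin of heart muscle junctions, had novel_circ_0016422 with 25 reads in sham replicate 3 and 15 in ovariectomized replicate 4 and no other entry. It is annotated as intronic, and the file names LRRTM3, a gene at the same place, beside CTNNA3, so its host is uncertain. CTNND1, which encodes the p120 catenin that binds cadherin tails, had 3 sham and 4 ovariectomized libraries with 2 to 9 reads. FBN1, the fibrillin of elastic microfibrils, had 5 reads in ovariectomized replicate 5 only.

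Listing in a single group was seen for 5 of the 123 circRNAs, in at least 3 libraries of that group and none of the other, against 2.12% of all 8721. Of the 5, 1 was listed in sham libraries alone and 4 in ovariectomized libraries alone, against 1.05% and 1.07% of all. CTNNAL1, which encodes a catenin-like protein, had novel_circ_0002750 (chromosome 2, 14290210 to 14303140, plus strand) with 9, 4, 10 and 8 reads in ovariectomized replicates 1, 2, 4 and 5 and no entry in the other 6 libraries. This pattern of entries, by which the circRNA was singled out, fixes its two-sided exact permutation p at 0.0476 whatever the counts. That p was 1 after adjustment over 7983 circRNAs, and it adds nothing to the listing itself. With entries in 4 libraries, the circRNA could not enter the fits whose filters need 5 libraries, so it was not tested there. With no filter beyond 1 read it passed in limma voom, with an adjusted p of 0.0123 over 8721 circRNAs. That call rests on the same lack of sham entries. The circRNA rests on 31 junction reads against 163.8 non-junction reads apiece, and the exon listed for it covers 190 of 12931 bases.

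The other 4 held 11 to 13 reads each. LAMA2 had novel_circ_0009208 with 7, 3 and 3 reads in sham replicates 1, 4 and 5. ITGA1 had novel_circ_0013123 with 4, 2 and 7 reads in ovariectomized replicates 2, 4 and 5, and ADAMTS20 novel_circ_0004458 with 3, 2 and 6 in the same replicates. COL21A1 had novel_circ_0014956 with 5, 3 and 4 reads in ovariectomized replicates 2, 3 and 4, and its other circRNA from the same start was listed only in ovariectomized replicates 1 and 3, with 5 and 3 reads. At such counts a circRNA without an entry may have had 1 read or been missed, so absence was not detectable at this depth.

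The junction reads were also set against the non-junction reads of the same circRNA and library, a measure that does not depend on library size. Of the 605 tested circRNAs with entries in all 10 libraries, 8 were of matrix and adhesion genes. The log2 ratio of junction to non-junction reads was higher after ovariectomy by a median of 0.31 over the 605 circRNAs, and by 0.14 without ovariectomized replicate 5. Relative to the median of 0.31, the 8 ranged from -1.06 for NDST2 to 0.48 for ADAM32. None of the 8 passed in limma trend, against 0.165% of the 605, and none had an unadjusted p under 0.05, against 8.26%. Nor were any of the 8 without overlap in this ratio, against 2.31%. The smallest p belonged to NDST2, with 1.71 to 1.75 non-junction reads per junction read in the sham libraries and 1.63 to 6.88 in the ovariectomized ones. Its difference in the log2 ratio was -0.75 ± 0.47 (SE), with an adjusted p of 0.645 in limma. ITGB1 followed with 0.64 ± 0.46 (adjusted p = 0.683 in limma) and COL15A1 with -0.45 ± 0.37 (adjusted p = 0.689 in limma).

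**Figure D5:**
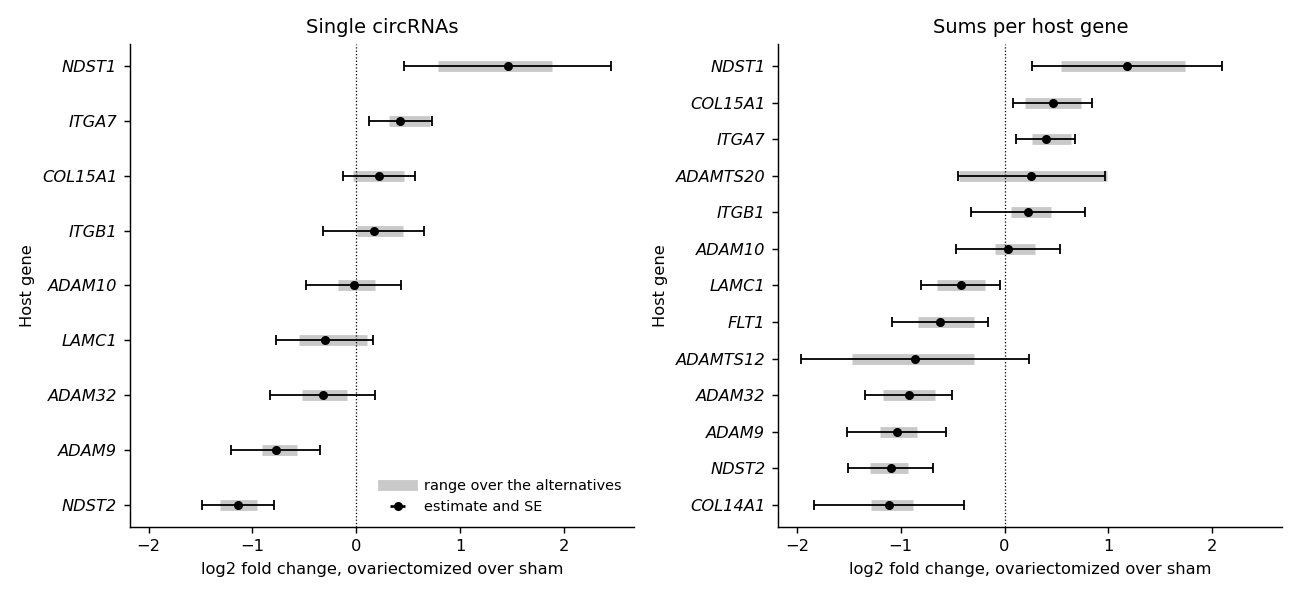
Log2 fold change of ovariectomized over sham libraries (x axis) for the 9 tested circRNAs (left) and the 13 tested host sums (right), with the limma voom estimate and its standard error and a grey band for the range over the alternative settings. Estimates run from -1.14 for NDST2 to 1.46 for NDST1 among circRNAs, and none passed the adjusted threshold.

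The authors' deposited table gives 4 of the 123 circRNAs a p under 0.05, against 1.35% of all 8721, each with an adjusted p of 0.966. As log2 of ovariectomized over sham, the authors' deposited table has CTNNAL1 novel_circ_0002750 at 4.75, NDST2 novel_circ_0016529 at -1.08, COL14A1 novel_circ_0010100 at -2.30 and ADAM32 novel_circ_0016840 at -1.41. The first has no sham entry, so its fold change rests on how the zeros were handled.

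Other genes of the matrix and of adhesion, 245 in 6 lists, gave 79 hosts with 201 circRNAs and 5467 reads. The focal adhesion and dystroglycan list held the most, 2649 reads from 21 of 53 genes. Of the 79 hosts, 12 were tested, 6 with a higher and 6 with a lower estimate after ovariectomy, and none passed in limma. Their median log2 fold change was 0.04, against -0.02 over all 753 hosts. An unadjusted p under 0.05 was found for 2 of the 12, both lower, against 5.98% of all 753 in either direction and 4.38% lower. They were ARHGEF7, which encodes an exchange factor of focal adhesions, at -0.92 ± 0.35 (SE), and TNS3, which encodes a tensin, at -0.86 ± 0.35. The next lower one was LIMS1, which encodes the integrin adaptor PINCH, at -0.40 ± 0.29 (SE). The smallest p among higher estimates were those of the nectin gene NECTIN3, at 1.35 ± 0.72 (SE), the hyaluronidase gene CEMIP2, at 0.78 ± 0.44, and the cytoskeletal linker gene DST, at 0.56 ± 0.45. The limma adjusted p of these 6 lay between 0.714 and 0.814.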

How the data were processed

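Junction and non-junction reads were unpacked from the deposited list of each circRNA for the 10 libraries. Another 10 sample names in those lists belong to no sample used here and were left out. A library without an entry was taken as 0 reads (smallest listed count 2). The submitters' processing notes name HISAT2. Caller, genome build and annotation: not given in the sources used here. The authors' deposited table holds log2 fold changes of sham over ovariectomized and p-values, shown here with the sign turned. Chromosome numbers came from the host genes' entries in the ARS-UI_Ramb_v3.0 gene table, which held all 123 host IDs, 118 with the same symbol (ADAM32 and CDH23 have other names there).

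Counts are packed in lists, so limma voom (limma 3.58.1, statmod 1.5.0, R 4.3.3) was used, with group as the only term, library sizes scaled by trimmed mean of M values over the circRNAs that pass the filter (trimming 30% by ratio and 5% by abundance), robust variances and Benjamini-Hochberg adjustment over all tested circRNAs or hosts at 0.05. The filter was 10 scaled reads in 5 libraries and a total of 15. Normalized reads are reads over the relative scaled library size. The ratio fit used limma trend on log2 ratios with 0.5 added to each count. CircRNAs under the filter were compared with exact permutation tests. The functions were tested on simulated counts.

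Named were all tested members and hosts, those with the most circRNAs, the widest or longest circles, those in a single group, the extremes of the ratio, and from other lists the 3 smallest p in each direction. Members and lists were chosen with earlier results of these data known.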

Additional observations from a re-analysis of the deposited data

Results flagged for a closer look

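Of 66 groups of 5 values tested for a library far from the others, 3 stood out, and chance alone flags about 1 in 20. The COL15A1 circRNA novel_circ_0003754 stood at 90.5 normalized reads for ovariectomized replicate 2, while the other 4 of its group lay between 22.5 and 40.9. The ADAM10 circRNA novel_circ_0008331 had 8.62 in sham replicate 3, against 11.1 to 12 in the others. Summed over its circRNAs, LAMC1 had 41.6 in sham replicate 1, against 20.5 to 22.6 in the others.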

How the results depend on the processing

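The alternatives changed the scaling, the filter, the test, the block and the libraries used, and scaling by all circRNAs or hosts was added after the data were seen. With no filter beyond 1 read, limma called 1 matrix and adhesion circRNA and 1 host, both of CTNNAL1, and 30 circRNAs and 7 hosts in all; when 2 reads in 5 libraries sufficed it called 4 circRNAs and 2 hosts in all. The replicate block gave 3 circRNAs and 1 host in all and none of matrix and adhesion genes, and the numbers were not taken to pair samples, as 2 of 5 same-numbered pairs had a correlation of deviations over 0.1 and 1 of 5 correlated best with its own number. Leaving out each library gave 0 to 1 called hosts (1 without sham replicate 4 or ovariectomized replicate 5) and 1 to 3 called circRNAs in the ratio fit (2 without sham replicate 1 or ovariectomized replicate 1, 3 without sham replicate 5). Library totals alone shifted the median of all 738 from -0.04 to 0.14.

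Library totals alone, applied to overlap after the data were seen, turned the gap between the lowest sham and the highest ovariectomized library from 1.87 to -0.52 normalized reads for the NDST2 circRNA, from 1.96 to -0.52 for its sum, from 0.090 to -0.48 for COL14A1 novel_circ_0010100 and from 0.24 to -0.099 for the LAMA2 sum. Of 30 fitted member estimates, 21 kept their sign in every setting that gave a value. The ADAM10 circRNA turned to 0.18 with library totals, 0.15 with the replicate block and 0.0076 with scaling over all circRNAs, and ranged from -0.062 to 0.16 without single libraries; its host sum turned to -0.0080 with no filter and -0.075 in limma trend, and ranged from -0.089 to 0.29. The ADAMTS20 sum turned to -0.078 at 2 or more reads, -0.18 with no filter and -0.44 in limma trend. Without single libraries the COL15A1 circRNA ranged from -0.031 to 0.46 and that of LAMC1 from -0.55 to 0.098. In the ratio fit the ranges were -0.029 to 0.41 for ITGA7, -0.23 to 0.34 for LAMC1, -0.49 to 0.010 for ADAM9 and -0.014 to 1.25 for ADAM32. Depth limits these results: 114 of 123 circRNAs were under the filter.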

Other observations

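The sham libraries of the NDST2 circRNA were nearly alike in both counts. Junction and non-junction reads were 18 and 31, 23 and 40, 23 and 40, 24 and 42, and 21 and 36 in replicates 1 to 5. In the ovariectomized libraries they were 8 and 55, 19 and 31, 6 and 17, 9 and 41, and 22 and 36, so that replicates 2 and 5 lay near the sham ratio and replicates 1, 3 and 4 above it.

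Several circRNAs of the genes studied here held their reads in few libraries. The CDH7 circRNA novel_circ_0015722 had 17 and 5 reads in ovariectomized replicates 2 and 3 and 8 in sham replicate 5. The COL5A2 circRNA novel_circ_0002133 had 15 reads in ovariectomized replicate 5 and 3 in sham replicate 3. The FLT1 circRNA novel_circ_0010363 had 13 reads in sham replicate 5 and 3 in sham replicate 2. These were picked out after their values were seen and were not tested.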
